A study of Mus musculus with 4 samples.

Results

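The proliferin genes of the Prl2c family were followed by symbol, as Prl2c2, Prl2c3, Prl2c4 and Prl2c5, in a table of read counts for 54532 genes. Rows were found for 3 of the 4 symbols. RefSeq (GRCm38.p6) lists Prl2c4 as another name of Prl2c3, and it has no value of its own here. Poly(A) RNA had been sequenced from 4 cultures of C3H10T1/2, a mouse mesenchymal stem cell (MSC) line derived from C3H embryos, with 1 library per group. The group named control received control siRNA, and siDNMT1 received siRNA against DNMT1, the methyltransferase that copies DNA methylation onto newly made strands. Both transfections lasted 48 h, and neither of these groups was induced. OB received control siRNA and siDNMT1_OB received DNMT1 siRNA, and both were then kept for 3 days in osteoblast (OB) induction medium with L-ascorbic acid at 50 µM, β-glycerophosphate at 10 mM and the glucocorticoid dexamethasone at 0.001 µM. The genes were taken by symbol, but the symbols had been chosen from their counts in these same libraries, where they were far lower in siDNMT1 and OB than in control. The differences below are therefore descriptions without a test, and with 1 library per group none has a replicate check.

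Proliferins are secreted glycoprotein hormones of the prolactin family, made in the mouse placenta by trophoblast giant cells. They are also known as mitogen-regulated proteins, because growing mouse fibroblast lines make them in response to serum and growth factors. Secreted proliferin binds the mannose 6-phosphate/IGF2 receptor and stimulates the migration of endothelial cells and the growth of blood vessels. The promoter of a proliferin gene is a textbook case of an element read jointly by AP-1, the JUN and FOS transcription factors, and by the glucocorticoid receptor.

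The 3 genes lie within a stretch of chromosome 13 (GRCm38) that is rich in pseudogenes. Prl2c3 (ENSMUSG00000056457) spans chr13:12790816-12800079 and Prl2c2 (ENSMUSG00000079092) spans chr13:12996125-13005383, both on the minus strand. Prl2c5 (ENSMUSG00000055360) spans chr13:13182715-13191923 on the plus strand. No other row of the table overlapped them. Each main transcript has 5 exons in GENCODE M21. Its coding part, without the stop codon, is 672 bases in Prl2c2 and Prl2c3 and 666 in Prl2c5.

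The sequences decide how far the genes can be read apart. The transcripts of Prl2c2 and Prl2c3 were identical at 838 of 842 aligned bases (99.5%), and their coding sequences differed at 3 of 672 bases. With Prl2c2's base first, the position counted from 1 at the A of the start codon, and Prl2c3's base last, these were T14C in exon 1, C200A in exon 2 and T319G in exon 4. Prl2c5 matched Prl2c2 at 806 of 840 aligned transcript positions (96.0%). The coding stretches around the 3 differences are shown because they are the only coding bases that separate the 2 genes. Capitals mark bases that are not the same in all 3 members, and all stretches read 5′ to 3′ on the coding strand.

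In exon 1, coding bases 1 to 31, at chr13:13005296-13005326 (minus strand) in Prl2c2, chr13:12799982-12800012 (minus) in Prl2c3 and chr13:13182782-13182812 (plus) in Prl2c5:
Prl2c2: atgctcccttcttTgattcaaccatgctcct
Prl2c3: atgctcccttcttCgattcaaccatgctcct
Prl2c5: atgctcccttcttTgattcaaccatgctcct

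In exon 2, coding bases 180 to 207, at chr13:13002134-13002161 (minus) in Prl2c2, chr13:12796831-12796858 (minus) in Prl2c3 and chr13:13185938-13185965 (plus) in Prl2c5:
Prl2c2: agaagtttcagaactgttcaCtgaAttt
Prl2c3: agaagtttcagaactgttcaAtgaAttt
Prl2c5: agaagtttcagaactgttcaCtgaGttt

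In exon 4, coding bases 316 to 339, at chr13:12997444-12997467 (minus) in Prl2c2, chr13:12792151-12792174 (minus) in Prl2c3 and chr13:13190586-13190609 (plus) in Prl2c5:
Prl2c2: tatTCagctcttctgaaatcagga
Prl2c3: tatGCagctcttctgaaatcagga
Prl2c5: tatGAagctcttctgaaatcagga

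Many short stretches of Prl2c2 and Prl2c3 therefore hold no base that names their gene, while most of Prl2c5 can be told apart. Of all stretches of 50 bases in the Prl2c2 transcript, 89.5% occurred unchanged in another member, in Prl2c1 or in the pseudogene Gm7040. The share was 66.4% for stretches of 100 bases. For Prl2c3 the shares were 78.6% and 62.3%, and for Prl2c5 38.6% and 8.72%. How reads with several positions were counted is not given in the sources used here. The sum of the 3 rows, called the Prl2c sum below, is for this reason the leading value. Its level is still subject to how those reads were counted. It misses them if they were dropped, and holds them more than once if they were counted at each position. The counting intervals below do not cover this.

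Uninduced cells with control siRNA held by far the most proliferin mRNA of the 4 libraries. The control library held 6124 counts of the Prl2c sum, against 291 for siDNMT1, 213 for OB and 137 for siDNMT1_OB. As CPM (counts scaled to library size with TMM factors), these were 226 (95% counting interval 220 to 232), 11.4 (10.1 to 12.7), 9.42 (8.20 to 10.8) and 5.12 (4.30 to 6.05). The control library thus stood apart, siDNMT1 and OB had overlapping counting intervals, and siDNMT1_OB lay below both. The sum in siDNMT1 was 5.03% of the control value, that in OB 4.17% and that in siDNMT1_OB 2.27%. In these bulk cultures, fewer cells making proliferin and less proliferin mRNA per cell cannot be told apart.

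**Figure D1:**
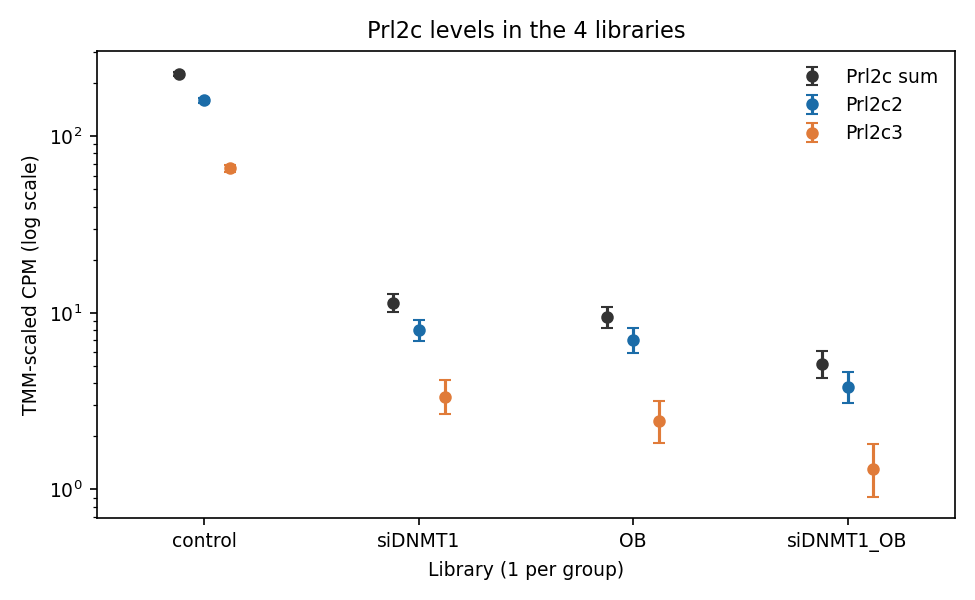
TMM-scaled CPM on a log axis for the Prl2c sum, Prl2c2 and Prl2c3 in each of the 4 libraries, 1 point per library, with 95% counting intervals as bars. Control holds 226 CPM of the sum, and the other libraries hold between 5.12 and 11.4 CPM.

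To rank genes, CPM was scaled for the merged length of all exons of each gene, 1090 bases in Prl2c2 and 1360 in Prl2c3. On this scale the sum was at 195 CPM per kb in control. It ranked 262nd among the 13233 genes tested (mean CPM of at least 1). Its rank fell to 5049 for siDNMT1, 5667 for OB and 8064 for siDNMT1_OB. Proliferin was thus among the more abundant messages of the control culture and a message of middling or low abundance in the other libraries.

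Prl2c2, the gene first described as proliferin, carried most of the counts. Its counts were 4330 for control, 205 for siDNMT1, 158 for OB and 102 for siDNMT1_OB, or 160, 8.0, 6.99 and 3.81 CPM. Prl2c3 had 1790, 86, 55 and 35 counts in the same order, or 66.0, 3.36, 2.43 and 1.31 CPM. Both genes had their highest value in control and their lowest in siDNMT1_OB, and both passed the expression filter. Prl2c5 had 4 counts in control and 0 in each of the other libraries, and it did not pass the filter. A count of 0 allows up to 0.117 CPM in siDNMT1, 0.133 in OB and 0.112 in siDNMT1_OB, against 0.147 CPM (0.0402 to 0.378) in control, so a difference in Prl2c5 was not detectable at this depth.

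The split between the genes hardly moved while the sum changed. Prl2c2 held 70.7% (Clopper-Pearson 95% interval 69.5 to 71.8) of the Prl2c counts in control and 70.4% (64.8 to 75.6) in siDNMT1. It held 74.2% (67.8 to 79.9) in OB and 74.5% (66.3 to 81.5) in siDNMT1_OB. The 4 intervals overlapped. Since the transcripts differ at so few bases, the split may also depend on how reads were assigned, and the separate values of both genes are uncertain.

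**Figure D2:**
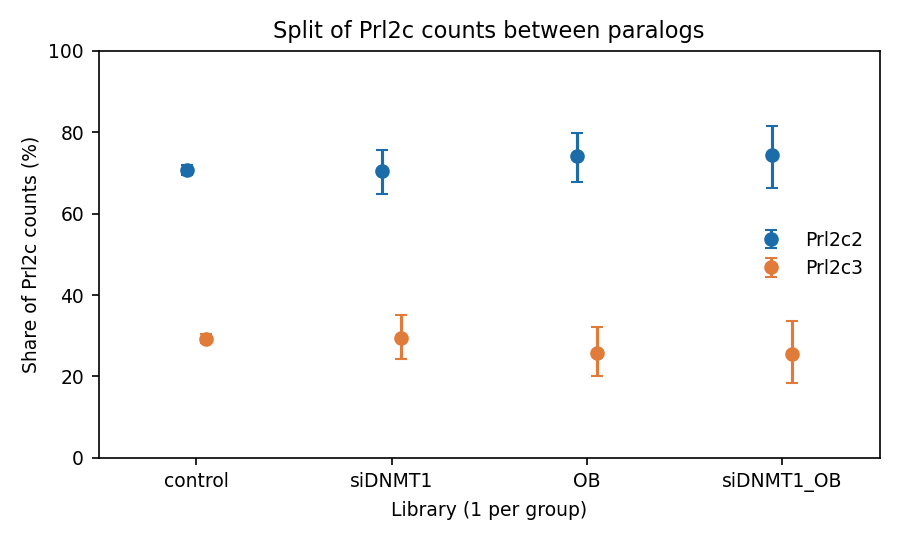
Share of the Prl2c counts, in percent, assigned to Prl2c2 and to Prl2c3 in each library, with Clopper-Pearson 95% intervals as bars. Prl2c2 holds between 70.4% and 74.5% in the 4 libraries.

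The first comparison asked how proliferin mRNA differed with DNMT1 siRNA before induction. The Prl2c sum of siDNMT1 was 19.9 times below that of control (counting interval 17.7 to 22.4), a log2 fold change of −4.30. Prl2c2 had −4.31 and Prl2c3 −4.27. Both tested members lay past a log2 fold change of 1 on the lower side, as did 1.37% of all tested genes, while 1.97% were higher and 3.34% passed in either direction. The members were chosen for this difference, so nothing is read from that count. In the order of fold changes of all tested genes, counted from the most lowered, Prl2c2 and Prl2c3 held places 2 and 3. The median of all tested genes was 0.00. Dnmt1, the siRNA target, had 7195 counts in control and 3375 in siDNMT1, 2.01 times lower (1.93 to 2.10), so the fall in the Prl2c sum was larger than that of the target itself.

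The same comparison in induced cells, siDNMT1_OB against OB, started from a Prl2c sum that was already low. The sum was 1.84 times lower (1.48 to 2.30) in siDNMT1_OB, a log2 fold change of −0.87, short of the size threshold of 1. Prl2c2 had −0.86 and Prl2c3 −0.86. No tested member passed the threshold, which 1.37% of the tested genes passed on the lower side, 2.36% on the higher side and 3.73% in all. Dnmt1 had 1931 counts in OB and 2492 in siDNMT1_OB, a log2 fold change of 0.13, so the library labelled siDNMT1_OB did not hold less Dnmt1 mRNA than its control and every direction drawn from it is subject to that. The log2 fold change of the Prl2c sum lay 3.43 higher in induced than in uninduced cells (counting interval 3.08 to 3.79), and for Prl2c2 and Prl2c3 the differences were 3.44 and 3.41. With 1 library per group this difference could not be tested across conditions.

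Libraries with and without osteoblast induction were then compared for each siRNA. The induced cultures were kept for 3 days after transfection, and none of the 4 libraries is an uninduced culture kept as long. Induction and time in culture therefore cannot be told apart, here and in the gene lists below. With control siRNA, OB held 24.0 times less of the Prl2c sum than control (20.9 to 27.6), a log2 fold change of −4.57. Prl2c2 had −4.50 and Prl2c3 −4.72. Both tested members passed the threshold, as did 7.1% of the tested genes on the lower side, 10.6% on the higher side and 17.7% in all, and again nothing is read from this, since this contrast too was known when they were chosen. Prl2c3 held place 3 and Prl2c2 place 6 from the most lowered. This comparison and that of siDNMT1 with control use the same control library, so a high value in that single culture enters both.

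With DNMT1 siRNA, the sum was 2.22 times lower (1.80 to 2.74) in siDNMT1_OB than in siDNMT1, a log2 fold change of −1.14. Prl2c2 had −1.05 and Prl2c3 −1.31. Both passed the threshold, against 2.71% of the tested genes on the lower side, 6.83% on the higher side and 9.54% in all. In this comparison Prl2c2 stood at place 290 and Prl2c3 at place 136 from the most lowered. The 2 libraries of this comparison share none with OB against control.

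**Figure D3:**
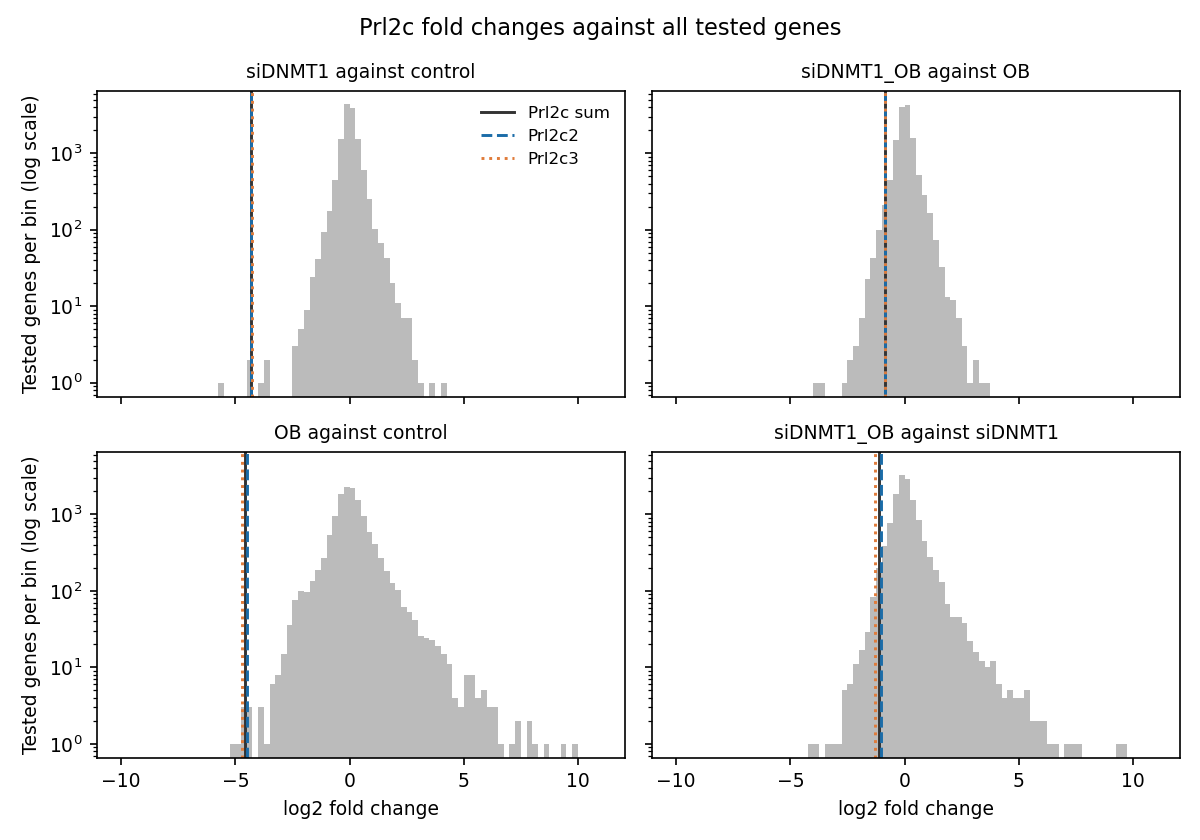
Number of tested genes per bin of 0.25 in log2 fold change (grey, log axis) for the 4 comparisons, with vertical lines at the Prl2c sum, Prl2c2 and Prl2c3. The lines lie at the far left in both comparisons with control, at −4.30 and −4.57 for the sum, and nearer to 0 for siDNMT1_OB against OB, at −0.87.

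Rows of related sequence were then read in the same way, since they could receive proliferin reads. Gm7040 (ENSMUSG00000113027, chr13:13320941-13323370, minus strand) is annotated as an unprocessed pseudogene, and its 443 bases matched Prl2c3 at 435 and Prl2c2 at 434. It had 23 counts in control and 0 in siDNMT1, OB and siDNMT1_OB. Against control, Gm7040 in siDNMT1 was thus at least 7.24-fold lower, and in OB at least 6.39-fold lower, computed against a floor of 3 counts per library. With the counting error of its 23 counts included, the lower limits of these ratios were 5.43 and 4.79. Whether these are reads of Gm7040 itself or of a member cannot be told from the table. Prl2c1, which lies farther along the chromosome at chr13:27849342-27857788 and matched Prl2c2 at 91.4% of aligned positions, had 0 counts in every library.

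The rest of the prolactin family was at very low counts. Of the other 24 genes on the list, which include prolactin itself, the placental lactogens of the Prl3 group and growth hormone, 15 had 0 counts in every library and 0 passed the expression filter. The highest single value was 5 counts, and the summed level ran from 0.149 to 0.627 CPM. Prl7d1, known as proliferin-related protein and as an inhibitor of blood vessel growth, had 2 counts in control and 0 elsewhere.

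Markers of trophoblast, the usual source of proliferin, were checked for the same reason. Of 15 trophoblast markers, 11 were at 0 in all libraries, among them Tpbpa, Hand1, Gcm1 and Cdx2, and the highest was Syna with at most 15 counts. Their summed level was 0.332 CPM in control and 0.703, 0.663 and 0.598 in siDNMT1, OB and siDNMT1_OB, which rests on few counts, and none of the 15 passed the filter. Its part in the Prl2c values was not tested. Of 10 mesenchymal markers, 9 passed the filter, with Col1a1 at 205939 to 288387 counts. Not all were steady. Ly6a was lower past the threshold in siDNMT1 against control, with 3931 and 1812 counts (−1.03). Pdgfra was higher in OB against control, with 3459 and 15936 counts (2.47). In siDNMT1_OB against siDNMT1, Pdgfra (1.56) and Thy1 (1.22) were higher past the threshold. The part of these markers in the Prl2c values was not tested. The summed markers of other types were low throughout. Most of the endothelial sum came from Tek, a receptor of angiopoietins, with 51, 152, 63 and 203 counts, and its part in the Prl2c values was not tested. The sums ran from 2.21 to 3.27 CPM for haematopoietic cells, 2.25 to 7.81 for endothelial cells, 0.354 to 1.03 for epithelial cells and 0.0374 to 0.737 for myoblasts. Myod1, Myf5, Epcam and Krt18 were at 0 in every library. The libraries held between 22296046 (OB) and 27367792 (control) counts in total.

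The other genes around the members were read in the same libraries. Within 250 kb of the outermost members, or between them, the table has 39 other rows, of which 26 had no count and 6 passed the filter. None of the 6 passed the threshold in any of the 4 comparisons, which 3.34% (siDNMT1 against control), 3.73% (siDNMT1_OB against OB), 17.7% (OB against control) and 9.54% (siDNMT1_OB against siDNMT1) of all tested genes passed, so a count of 0 of 6 is near the background. Between siDNMT1 and control all 6 were negative, from −0.998 to −0.22 on the log2 scale, and below the 25th percentile of all tested genes (−0.17). Nid1, Gpr137b and Gpr137b-ps lay below the 5th percentile (−0.55), which the count past the threshold does not show. The part of this shift in the Prl2c values was not tested. In OB against control the 6 ran from −0.60 to 0.39. For siDNMT1_OB against OB the range was −0.20 to 0.08. For siDNMT1_OB against siDNMT1 it was 0.21 to 0.53, while the Prl2c sum was lower there (−1.14). Nid1, which encodes the basement membrane protein nidogen-1, came closest. Its counts were 20704 for control and 9788 for siDNMT1, a log2 fold change of −0.998, just short of the threshold. With DESeq2 size factors it was −1.01 and 1 of the 6 passed. Gpr137b, encoding a lysosomal membrane protein, had 1535 and 788 counts, or −0.88. Gpr137b-ps had 1198 and 757 counts (−0.58), and Ero1lb, encoding an oxidase of the endoplasmic reticulum, had 288 and 233 (−0.22). Gm2423 and Gm2399 are pseudogenes, and their counts may include reads of their parent genes.

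**Figure D4:**
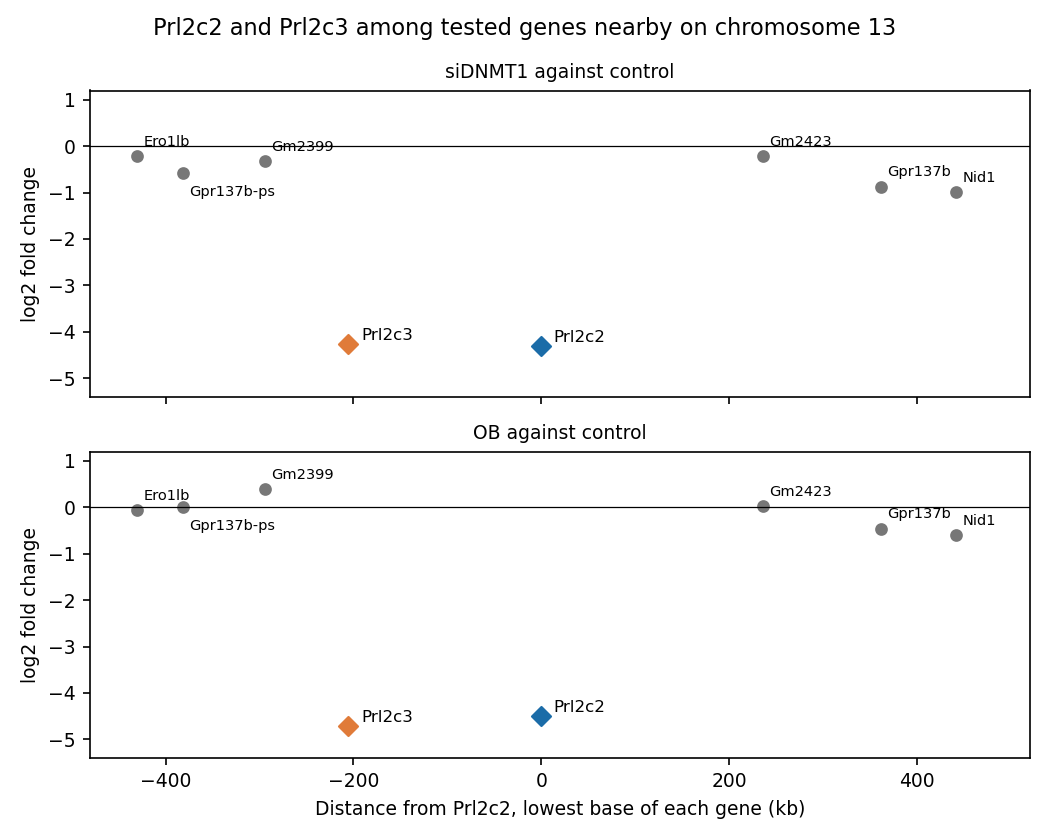
Log2 fold change of Prl2c2, Prl2c3 and the 6 other tested genes nearby, by distance from Prl2c2 in kb, for siDNMT1 against control (top) and OB against control (bottom). The members lie below −4 in both, and the other genes lie between −0.998 and 0.39.

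The receptors to which proliferin or its relatives bind changed little. Igf2r, the mannose 6-phosphate/IGF2 receptor, had 8188, 8238, 6539 and 7676 counts in the order control, siDNMT1, OB, siDNMT1_OB, with log2 fold changes from −0.16 to 0.09 in the 4 comparisons. M6pr, the smaller mannose 6-phosphate receptor, ranged from −0.13 to 0.10, and Ghr, the growth hormone receptor, from −0.17 to 0.30. Prlr, the prolactin receptor, had 2 counts in OB and 0 in the other libraries. The known proliferin receptor was thus at similar mRNA levels in cultures whose proliferin levels differed widely.

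The AP-1 genes and the glucocorticoid receptor were described next, as the factors known at a proliferin promoter. Of the 9 tested genes, 0 passed the threshold in siDNMT1 against control, near the 3.34% of all tested genes, with a median of −0.04 against 0.00 over all tested genes. Fosl1, which encodes the FOS-related factor FRA-1, had 1443 counts in control and 744 in siDNMT1, or −0.87. Jun had 4028 and 2466 counts, or −0.63. Others lay on the higher side, with Fosb at 25 and 44 counts (0.84) and Atf3 at 67 and 96 (0.59). Of the 9, 6 were negative and 3 positive. With OB induction under control siRNA, 4 of the 9 were lower past the threshold (7.1% of all tested genes) and 1 was higher (10.6%), with a median of −0.81. Fosl1 went to 180 counts (−2.73), Fos from 89 to 18 (−1.94), Atf3 from 67 to 18 (−1.54) and Junb from 2726 to 841 (−1.43), while Fosb went from 25 to 48 (1.14). Nr3c1, the glucocorticoid receptor, had 3016 counts in control and 1918 in OB, or −0.39. In siDNMT1_OB against OB, 2 of the 9 were higher past the threshold (2.36% of all tested genes), 0 were lower (1.37%) and 8 were positive. Atf3 had 18 and 68 counts (1.58), Fos 18 and 57 (1.34), and Fosl1 a value of 0.73. These lay on the higher side where the Prl2c sum lay on the lower. In siDNMT1_OB against siDNMT1, 7 of the 9 were negative and 2 were lower past the threshold (2.71% of all tested genes), with a median of −0.28. The part of these genes in the Prl2c values was not tested.

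Glucocorticoid-induced genes were higher in the libraries kept in OB medium, which contains dexamethasone. In OB against control, 11 of the 13 tested were higher past the threshold (10.6% of all tested genes) and all 13 had a positive value, with a median of 2.15. The same counts, with a median of 2.30, were found for siDNMT1_OB against siDNMT1, where 6.83% of all tested genes were higher. Tsc22d3, encoding the glucocorticoid-induced leucine zipper protein, had 744, 744, 9970 and 12032 counts in the order control, siDNMT1, OB, siDNMT1_OB. Fkbp5, a co-chaperone of the receptor, had 1233, 1129, 8405 and 7871, and Zbtb16, a zinc finger transcription factor, had 0, 0, 1780 and 1688. Between siDNMT1 and control 0 of the 13 passed the threshold, near the 3.34% of all tested genes, and 10 were negative, with a median of −0.26. In siDNMT1_OB against OB 9 of the 13 were negative, with a median of −0.25, and 1 was lower past the threshold (1.37% of all tested genes). This was Glul, which encodes glutamine synthetase, with 6226 and 3036 counts (−1.28), and it had 737 counts in control (3.34 in OB against control). The part of these genes in the Prl2c values was not tested.

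Growth factor response genes, the class to which proliferin itself was first assigned, were lower after induction under control siRNA. In OB against control, 14 of the 19 tested were lower past the threshold (7.1% of all tested genes) and 1 was higher (10.6%), with a median of −1.18. Egr1, an immediate early transcription factor, went from 5179 to 473 counts (−3.19), Hbegf, an EGF receptor ligand, from 622 to 84 (−2.60), and Hmga1, a chromatin protein, from 6190 to 891 (−2.53). Fgf2, itself a growth factor, was the higher one, from 86 to 279 counts (1.93). In siDNMT1_OB against siDNMT1, 5 of the 19 were lower past the threshold (2.71% of all tested genes) and 1 was higher (6.83%), with a median of −0.52. For siDNMT1 against control, 1 of the 19 passed the threshold, Hmga1 with 2768 counts (−1.08), against 1.37% of all tested genes on the lower side, and the median was −0.25. In siDNMT1_OB against OB, 1 of the 19 was higher past the threshold (2.36% of all tested genes) and 0 were lower (1.37%). The median was 0.44, with 17 of the 19 positive, and the Prl2c sum had the opposite sign. Whether the growth factor response has a part in the Prl2c values was not tested.

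Proliferation genes were lower after induction with either siRNA. With induction under control siRNA, 12 of the 13 tested were lower past the threshold (7.1% of all tested genes), with a median of −2.26. Mki67, a marker of cycling cells, went from 13598 to 1909 counts and Mcm5, a subunit of the replication helicase, from 5095 to 608. With DNMT1 siRNA before induction, 0 of the 13 passed the threshold, which 3.34% of all tested genes passed, 12 of the 13 were negative and the median was −0.24, with 11757 counts of Mki67 and 3530 of Mcm5. In siDNMT1_OB against OB, 5 were higher past the threshold (2.36% of all tested genes) and the median was 0.99. In siDNMT1_OB against siDNMT1, 8 were lower past the threshold (2.71% of all tested genes), with a median of −1.12. Their part in the Prl2c values was not tested.

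Angiogenic factors other than proliferin moved in both directions. Between siDNMT1 and control, 1 of 13 tested genes passed the threshold, Angptl4 (299 counts in control, 112 in siDNMT1, −1.32), where 3.34% of all tested genes passed in either direction, and the median was −0.02. In OB against control 3 were higher and 2 lower, against 10.6% and 7.1% of all tested genes. Vegfd had 912 and 3281 counts (2.11), and Pdgfb had 149 and 39 (−1.63). In siDNMT1_OB against OB 2 were higher and 1 lower, against 2.36% and 1.37% of all tested genes. Thbs1, which encodes the vessel growth inhibitor thrombospondin-1, had 2974 and 14865 counts (2.08). Pdgfb had 39 and 267 (2.48), and Angptl4 had 273 and 124 (−1.37). In siDNMT1_OB against siDNMT1 4 were higher and 1 lower, against 6.83% and 2.71% of all tested genes, with a median of 0.29.

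**Figure D5:**
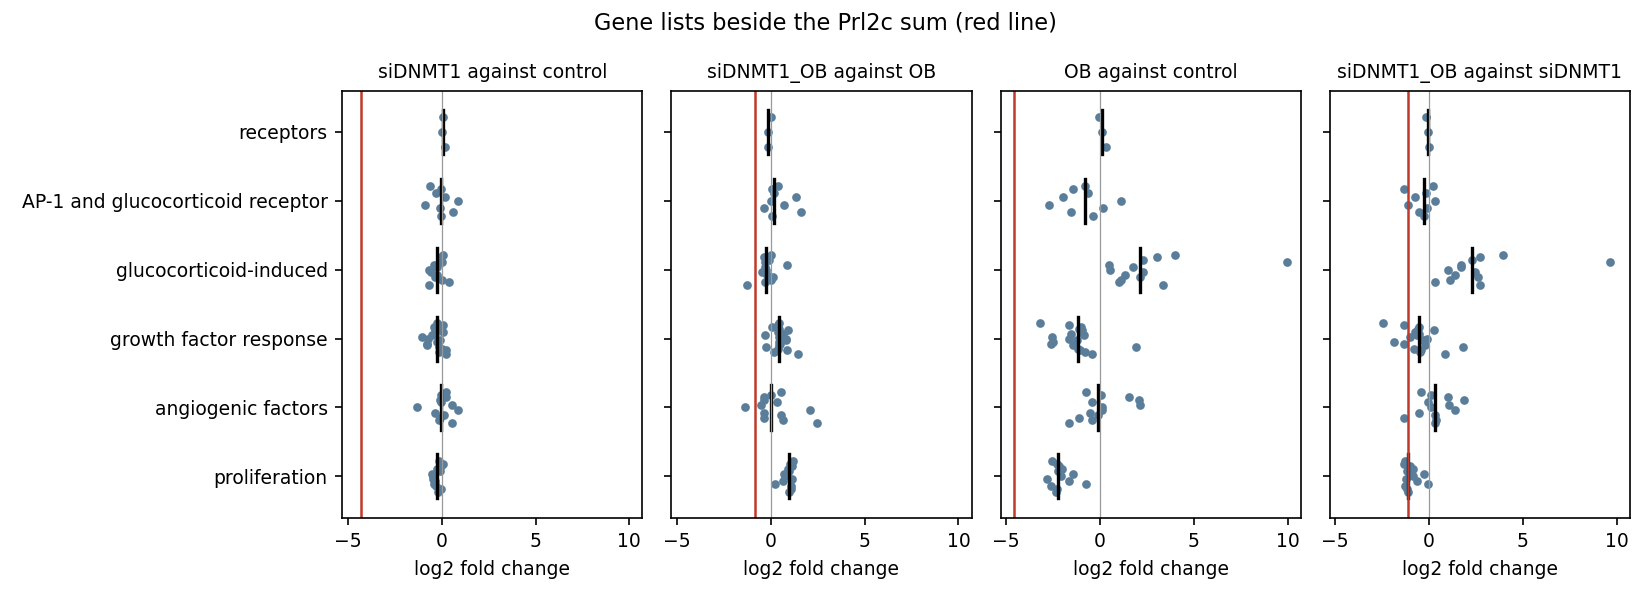
Log2 fold changes of the tested genes of 6 lists (points) with each list's median (black bar) in the 4 comparisons, and the Prl2c sum as a red line. In siDNMT1 against control the lists sit near 0 and the sum at −4.30, and in OB against control the proliferation list has a median of −2.26 and the sum −4.57.

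The genes with a pattern most like that of the Prl2c sum were sought over the 4 libraries. Likeness was measured as the root mean square distance between log2 CPM values, each gene centred on its own mean, among 13231 genes. Sprr1a, which encodes a small proline-rich protein of the cornified envelope of skin, came first at a distance of 0.42, against a median of 2.12 over all genes. Its counts were 122, 8, 3 and 0 in the order control, siDNMT1, OB, siDNMT1_OB. Aldh3a1, an aldehyde dehydrogenase, came next at 0.96, with 651, 49, 110 and 62 counts. Itgb7, an integrin β subunit, followed at 0.99 with 377, 84, 52 and 47 counts. The others, at distances from 1.03 to 1.12, were Gsta1, Ngef, Tprg, Msln, Epha1, Fam110c and Dusp2. All 10 had their highest count in control. Nothing is read from this, since they were ranked by likeness to a sum chosen for being high there. Several rest on few counts in siDNMT1, OB and siDNMT1_OB. Sprr1a, which came first, had 8, 3 and 0, Msln had 1, 15 and 5, and Gsta1 had 5, 16 and 10. Also, 4 libraries are few points for such a ranking.

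Last, promoters were read. RefSeq windows from 250 bases before to 50 after the start site (GRCm38.p6) matched 2 of the members, Prl2c3, and Prl2c5, which did not pass the expression filter. The promoter of Prl2c2, which holds most of the counts, was not analysed here. They are shown whole, 5′ to 3′ on the gene's strand, with matches to an AP-1 motif, a TATA box motif and a motif of the glucocorticoid receptor in capitals. Both strands were searched, and the letters of each motif are given after the windows. The windows are chr13:12800030-12800329 (minus) for Prl2c3 and chr13:13182466-13182765 (plus) for Prl2c5:
Prl2c3: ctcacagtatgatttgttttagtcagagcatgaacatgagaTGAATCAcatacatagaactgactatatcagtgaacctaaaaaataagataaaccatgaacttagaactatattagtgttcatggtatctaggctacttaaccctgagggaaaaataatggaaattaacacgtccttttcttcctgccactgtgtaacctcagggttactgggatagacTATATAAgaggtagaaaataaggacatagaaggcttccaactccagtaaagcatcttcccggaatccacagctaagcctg
Prl2c5: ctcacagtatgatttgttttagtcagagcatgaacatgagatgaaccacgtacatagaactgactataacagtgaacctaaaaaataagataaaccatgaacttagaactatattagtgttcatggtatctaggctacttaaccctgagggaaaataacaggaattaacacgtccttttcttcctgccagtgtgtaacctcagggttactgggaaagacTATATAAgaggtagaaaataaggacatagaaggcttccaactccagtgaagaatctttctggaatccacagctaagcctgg

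The 2 windows were identical at 287 of 300 aligned positions (95.7%). Each had 2 CpG dinucleotides, the sites at which DNMT1 acts, and 23.3% of the 32851 promoter windows had as few, with a median of 7 over all.

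For the TATA box the letters TATATAA were searched, which 3.24% of all windows hold, and both members' windows held them once.

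For AP-1 the letters TGANTCA were searched, which 7.81% of all windows hold. The Prl2c3 window held 1 match, at its bases 42 to 48, and the Prl2c5 window held none.

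For the glucocorticoid receptor the letters AGAACA were searched, which 19.0% of all windows hold, and neither window held them on either strand. Without such a match no overlap with the AP-1 letters could arise, so nothing is read about a joint element. A match to letters does not show that a factor binds, and DNA methylation at these windows was not analysed here.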

How the data were processed

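Poly(A) RNA of 4 cultures, 1 library per group, was analysed. Per the study's methods the authors trimmed paired-end reads with Trimmomatic, aligned them with HISAT2 and made the counts per gene with featureCounts. The submitters' processing notes name mm10, and versions, strand use and the treatment of reads with several positions are not given in the sources used here. The deposited values are raw counts, not normalized. Positions in the table equalled those of GENCODE M21 (GRCm38) for 53499 of 54409 shared genes (98.3%) and for all 3 members.

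TMM factors (edgeR 4.0.16, R 4.3.3) were computed on the genes whose CPM from total counts averaged 1 or more. The same cut on TMM-scaled CPM then gave the 13233 tested genes of 54532. Fold changes are differences of log2 CPM with a prior count of 2, and the size threshold of 1 is that of the study. Level intervals are exact Poisson intervals, and intervals of ratios and shares are Clopper-Pearson intervals, all at 95%. The interval of a difference of 2 log2 fold changes is a normal approximation from the 4 counts. Reads had no molecular identifiers, so intervals and the floor of 3 counts cover counting error only. No p-value was computed, since each group holds 1 library and the members were chosen for their values here. The fold change calculation was tested on simulated data. Transcripts and promoters were aligned in Biopython 1.88.

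The members, gene lists and rules were chosen with earlier results of these data known. The named genes include the members and other Prl2c rows, Dnmt1, and the 10 genes most like the Prl2c sum. The rows within 250 kb are given as counts of rows, with the tested genes named. From each list up to 4 members were named, or any member for AP-1 and receptors. These were not always the members furthest from 0. In OB against control, Angpt2 (2.12) and Ptgs2 (−2.53) lay further out than some members described above. Tek, Col1a1, Ly6a, Pdgfra, Thy1, Syna and the marker genes at 0 were named after their values were seen. Alternatives were other scalings (total counts, upper quartile, DESeq2 1.42.0 size factors), other prior counts (0.5 and 5), other filters and other sums.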

Additional observations from a re-analysis of the deposited data

How the results depend on the processing

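The Prl2c sum kept its sign and its side of the size threshold in every comparison under other scalings, other prior counts, sums without Prl2c2 or Prl2c3 and the median of the members. A sum over all Prl2c rows equals the main value, since Prl2c1 had no count, and leaving out Prl2c5 could hardly change it. Its log2 fold change ranged from −4.31 to −4.27 for siDNMT1 against control, −4.72 to −4.50 for OB against control, −0.90 to −0.86 for siDNMT1_OB against OB and −1.31 to −1.05 for siDNMT1_OB against siDNMT1. Beside the planned settings, these ranges include those chosen after seeing the data, 2 for each comparison with control and 1 for each other comparison. Adding Gm7040 to the sum gave −4.31 and −4.58 in the comparisons with control. Leaving out siDNMT1_OB, whose Dnmt1 level goes against its label, gave −4.30 and −4.57, with 427 and 2303 genes past the threshold against 442 and 2344. Other scalings, also tried after seeing the data, put Nid1 in siDNMT1 against control between −1.01 and −0.97, past the threshold with DESeq2 size factors. The alternative values for Prl2c2 and Prl2c3 stayed within their counting intervals. The fitted value of Prl2c5 depended on the prior count, at −1.53 with 2, −3.09 with 0.5 and −0.81 with 5 in both comparisons with control.

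The number of genes past the threshold depended on the filter. With a mean CPM of at least 5 it was 201 for siDNMT1 against control, 257 for siDNMT1_OB against OB, 1553 for OB against control and 737 for siDNMT1_OB against siDNMT1. Without a filter it was 2598, 3273, 6142 and 3866, since low counts then enter. Per kb, the share of Prl2c2 in control was 75.1%. The list of most similar genes depended on the measure. Of the 10 genes, 2 remained with a mean CPM of at least 5, and 0 when genes were ranked by correlation over the 4 libraries. No paired analysis was possible because each group holds 1 library. Depth limits Prl2c5 and Gm7040, which rest on 4 and 23 counts.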
